A study of Mus musculus with 7 samples.

Results

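The transcripts of 32 genes of the lysosome, its proton pump and autophagy were followed in the abdominal aorta, taken whole, from Apoe-/- males. The genes were taken by name from a table of 32544 genes, and all 32 were found in it. They comprise 7 membrane proteins and transporters, 9 hydrolases, 3 activators and soluble carriers, 10 genes of the vacuolar proton ATPase (V-ATPase), and 3 genes of autophagy and its control. All of the mice lack apolipoprotein E, which makes them prone to atherosclerosis, and all were fed a high-fat diet for 12 weeks. The ITA-LNP mice were injected intravenously with 50 mg/kg of ITA-LNP 1 time a week, and the control-LNP mice with a control particle at the same dose and schedule. LNP commonly stands for lipid nanoparticle, and ITA was read from the series title as itaconate, a metabolite that activated macrophages make. The labels write NP in the sample titles and LNP in the treatment text, and give no age. The ITA-LNP group held 3 libraries and the control-LNP group 4. The labels do not say whether each came from its own mouse, so p-values reflect only how these libraries vary, which may be partly technical.

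The lysosome is the acidic compartment in which cells break down proteins, lipids, glycans and material delivered by endocytosis, phagocytosis or autophagy. The V-ATPase pumps protons into it: a cytosolic V1 sector splits ATP and a membrane V0 sector carries the protons. In atherosclerotic arteries, macrophages and smooth muscle cells take up lipoproteins, and lysosomal acid lipase with the carriers NPC1 and NPC2 frees their cholesterol for export from the cell. TFEB and its relatives of the MiT family are transcription factors that bind the E-box CACGTG in the promoters of many lysosomal genes.

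Levels are given as CPM, the reads of a gene per 1000000 reads of all genes in the table. The libraries were made from the 3′ ends of transcripts, so gene length does not enter a level. Depth was 6375381 to 7281721 reads in the ITA-LNP libraries and 5077073 to 6688872 reads in the control-LNP libraries. Markers of several cell types differed between the groups. All 7 smooth muscle markers rose and summed to 16887 to 20744 CPM in ITA-LNP libraries, against 435 to 615 CPM in control-LNP libraries. All 6 platelet markers fell and summed to 87.4 to 170 CPM with ITA-LNP, against 4789 to 6216 CPM in control-LNP libraries. B cell, T cell, neutrophil and erythroid markers were likewise lower, with 4 of 5, 4 of 5, 5 of 5 and 4 of 5 passing the test. The control-LNP libraries, although labelled aorta, were therefore poor in transcripts of the vessel wall and rich in those of blood cells. Control-LNP replicate 2 stood apart from the other control-LNP libraries: it had reads for 10846 genes, and the other 3 for 14232 to 15333, and its neutrophil markers summed to 26529 CPM, against 901 to 10164 CPM. Values without it are given beside the results for the 32 genes. In such bulk libraries fewer cells of a type and less RNA per cell cannot be told apart, and the part of these cell type differences in the results below was not tested.

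Summed over the 32 genes, the level was 5257, 5995 and 6829 CPM in the ITA-LNP libraries and 4352, 4514, 3476 and 3039 CPM in control-LNP replicates 1 to 4. The ITA-LNP sums all lay above the control-LNP sums, and the means were 6027 ± 786 CPM with ITA-LNP and 3845 ± 705 CPM with control-LNP (SD, n = 3 and 4), a ratio of 1.57, or 1.66 without control-LNP replicate 2. Abundant genes weigh most in this sum, and Psap alone had a mean of 1825 CPM with ITA-LNP and 919 CPM with control-LNP. The ratio is therefore not a shift shared by all 32 genes. Over the same libraries the smooth muscle sum differed 35.8 times, and the platelet sum 48.0 times in the other direction. The macrophage markers summed to 1573 to 2439 CPM in ITA-LNP libraries and 1225 to 1764 CPM in control-LNP libraries, with 5 of 10 higher and 1 lower.

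**Figure D1:**
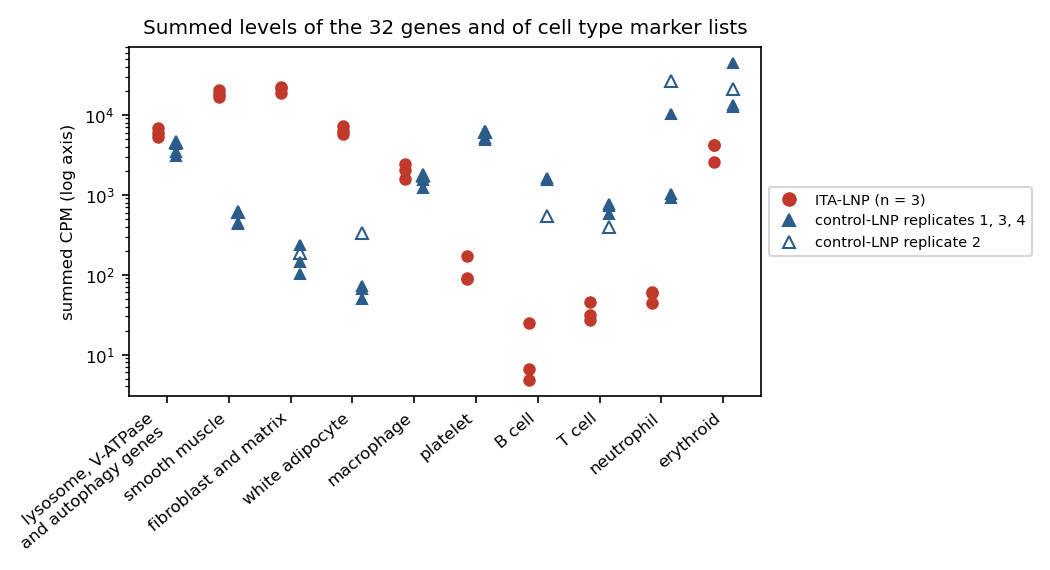
Summed CPM (log axis) of the 32 lysosome, V-ATPase and autophagy genes and of 9 lists of cell type markers, 1 point per library. The sums of the 32 genes lie between 3039 and 6829 CPM in all 7 libraries, while the smooth muscle sum is 35.8 times higher with ITA-LNP and the platelet sum 48.0 times higher with control-LNP.

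Of the 32 genes, 5 rose and 1 fell with ITA-LNP (limma on log2(CPM + 1), adjusted p under 0.05 over all genes tested). That is 15.6% higher and 3.12% lower, against 10.3% higher and 5.15% lower among all 12636 genes tested, so the shares lay near the background. The genes that rose were Atp6v0d2, Gaa, Asah1, Lamp1 and Psap, and the gene that fell was Laptm5. Without control-LNP replicate 2, 14 rose and 3 fell, which is 43.8% and 9.38%, against 15.4% and 16.0% of all genes (31.4% in either direction). With limma-voom on the recovered reads 6 of the 32 rose and none fell, against 10.1% and 3.94% of all genes. The 6 genes called with all libraries were among these 17 and kept their direction, and 11 were added. In ITA-LNP libraries 11 of the 32 genes lay above every control-LNP library and 3 lay below, against 19.1% and 10.7% of all genes tested. Without control-LNP replicate 2 these counts were 14 and 4, against 21.4% and 24.2% of all genes tested.

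The median log2 fold change was 1.25 over the 32 genes and 0.15 over all genes tested. Centring each library on its median moved the median of all genes by -1.13 and left 2 of the 32 genes higher and 2 lower. It shifts every log2 fold change by the same amount, so the gap of 1.10 between the medians of the 32 genes and of all genes could not change. All 32 genes passed the filter on low values. Atp6v0d2 passed only through the ITA-LNP libraries and Tfeb only through the control-LNP libraries.

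**Figure D2:**
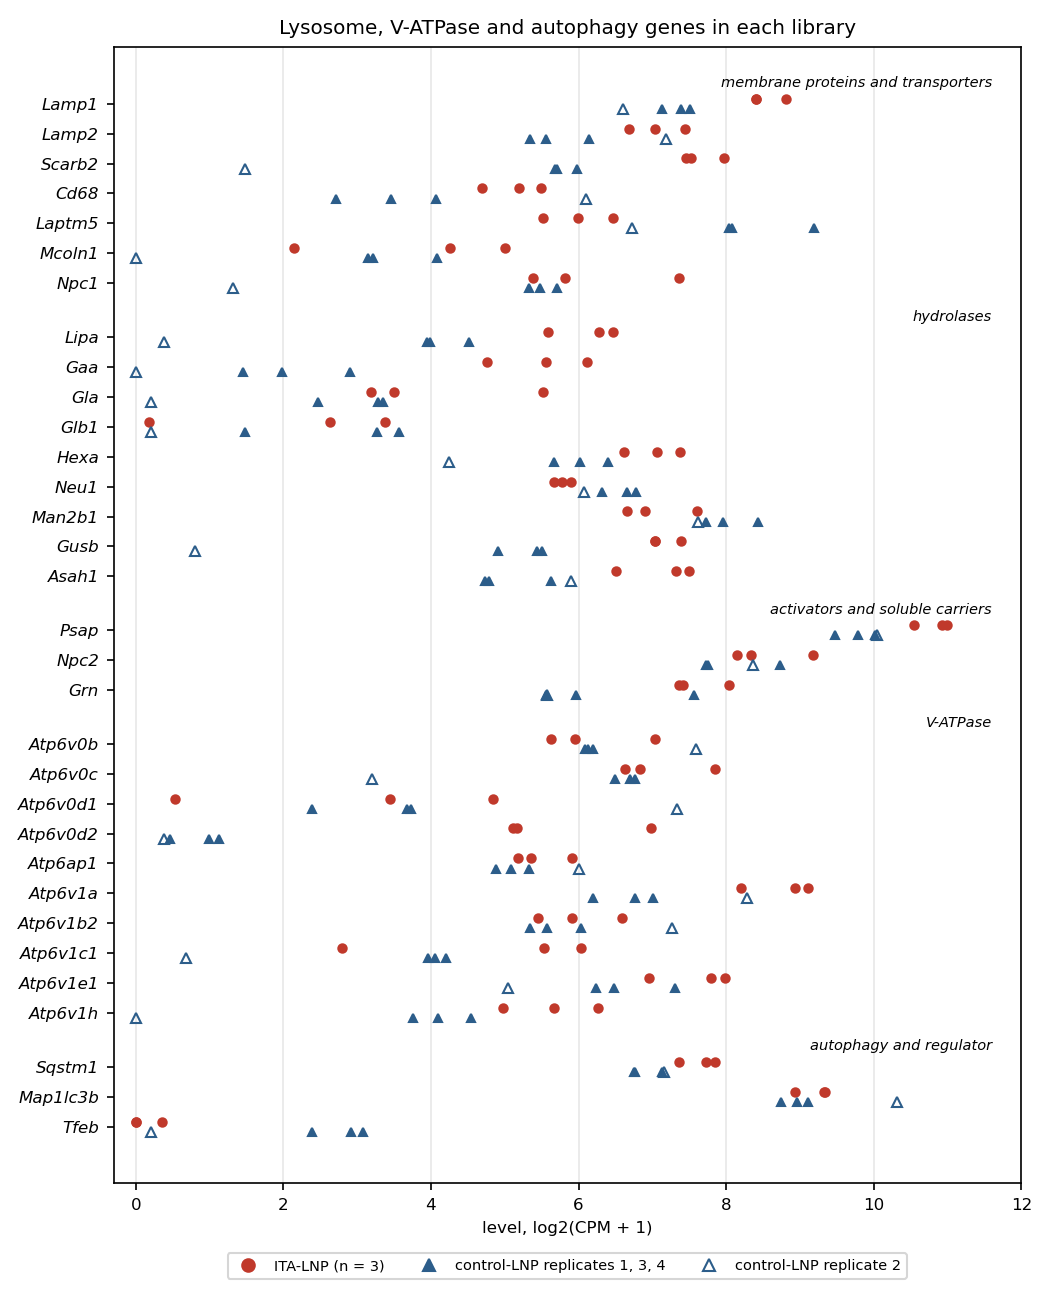
Level of each of the 32 genes in each library, as log2(CPM + 1), grouped by role, with control-LNP replicate 2 as an open triangle. Atp6v0d2 and Gaa show the widest gaps between the groups, Laptm5 is lower in every ITA-LNP library, and control-LNP replicate 2 lies near 0 for Mcoln1, Gaa and Atp6v1h, all at 0 reads in it.

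To show what the genes share in sequence, promoter windows from 250 bases before to 50 bases after the start were taken from RefSeq (GRCm38.p6) and searched on both strands for CACGTG and for TCACGTG, which contains it. Of the 32 genes, 26 had a window, and Npc1, Asah1, Atp6v0d2, Atp6v1b2, Atp6v1c1 and Atp6v1h are only named. Windows of 8 genes held CACGTG, which is 30.8% of the 26, against 8.09% of the 27025 genes with windows. The same 8 held TCACGTG (4.29% of all genes). A longer palindromic motif that contains TCACGTG was also searched, and 0 of the 26 held it, against 0.370% of all genes. At so low a share, 26 genes are too few to show whether it is rarer among them. The 8 genes with CACGTG were Lamp1, Mcoln1, Gaa, Gla, Glb1, Atp6v0b, Atp6v0d1 and Atp6v1a. The stretches with the sites of 6 of them follow, 5′ to 3′ on the gene's strand, with each CACGTG in capitals and all bases before the start of the RefSeq window's transcript. In the GENCODE M21 annotation used for the gene coordinates, Atp6v1a starts upstream of its stretch, and the starts of Mcoln1 and Atp6v0b fall within theirs. Of these 6 genes Lamp1 and Gaa rose, and the other 4 carry the same letters without a call when all libraries are used. Atp6v1a did pass without control-LNP replicate 2. Gla and Atp6v0d1 also carry the letters without a call, and their stretches are not shown.
Lamp1, chr8:13159075-13159160, plus strand: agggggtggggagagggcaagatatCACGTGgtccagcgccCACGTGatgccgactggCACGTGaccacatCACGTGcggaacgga
Gaa, chr11:119267798-119267853, plus strand: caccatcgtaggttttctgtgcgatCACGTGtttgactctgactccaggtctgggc
Mcoln1, chr8:3500423-3500504, plus strand: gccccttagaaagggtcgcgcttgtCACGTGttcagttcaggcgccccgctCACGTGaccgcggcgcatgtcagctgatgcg
Glb1, chr9:114401005-114401060, plus strand: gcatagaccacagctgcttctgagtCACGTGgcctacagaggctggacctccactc
Atp6v0b, chr4:117887330-117887390, minus strand: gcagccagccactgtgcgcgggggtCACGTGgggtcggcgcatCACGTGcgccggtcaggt
Atp6v1a, chr16:44139360-44139415, minus strand: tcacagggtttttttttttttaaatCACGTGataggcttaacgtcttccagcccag
The Lamp1 stretch holds 4 sites within 86 bases, and Mcoln1 and Atp6v0b hold 2 each. Of the 8 genes with the site 2 rose and none fell, with a median log2 fold change of 1.29. Of the 18 genes without it 1 rose and 1 fell, with a median of 0.99. Without control-LNP replicate 2 the order of the medians turned, at 0.68 for the 8 genes with the site (3 rose, none fell) and 0.83 for the 18 without it (8 rose, 3 fell). The 6 genes with no window, Asah1 and Atp6v0d2 among them, stand outside this comparison. With all libraries 2 of them rose and none fell, at a median log2 fold change of 1.79. Without control-LNP replicate 2 their median was 1.11, and 3 rose and none fell. A match is a description of these letters and shows neither binding nor its absence.

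Among the membrane proteins, Lamp1 rose and Laptm5 fell. Lamp1 (mm10 chromosome 8, 13159161 to 13175338) encodes a heavily glycosylated protein that lines the lysosomal membrane. It had 449.7, 338.8 and 338.8 CPM in ITA-LNP libraries, against 139, 96.6, 182 and 167 CPM in control-LNP replicates 1 to 4. The groups did not overlap, at a log2 fold change of 1.38 ± 0.36 (SE), with an adjusted p of 0.0268. It was 1.20 (adjusted p = 0.00504) when control-LNP replicate 2 was left out. The call of Lamp1 ended when any of the 3 ITA-LNP libraries or 1 of control-LNP replicates 1 and 4 was left out, at adjusted p of at most 0.116, and with median centring (0.26, adjusted p = 0.853). Its last exon overlaps an exon of Grtp1 on the other strand by 177 bases, and how the counting treated strand is not given in the sources used here. Grtp1 had 248, 329 and 434 CPM in ITA-LNP libraries, against 137 to 211 CPM in control-LNP libraries, so reads of the pair may be divided between the names.

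Laptm5 (chromosome 4, 130913125 to 130936141) encodes a lysosomal transmembrane protein of blood-forming cells that lowers antigen receptor levels in lymphocytes. It had 45.0, 62.6 and 87.9 CPM in ITA-LNP libraries, against 584, 105, 262 and 270 CPM in control-LNP replicates 1 to 4. Every ITA-LNP library was lower, with a log2 fold change of -2.01 ± 0.58 (adjusted p = 0.0438), or -2.44 without control-LNP replicate 2 (adjusted p = 0.00263). The call was lost when any of the other 6 libraries was left out (adjusted p up to 0.154). B cell markers, which were lower too, summed to 4.81 to 25.1 CPM in ITA-LNP libraries and 548 to 1608 CPM in control-LNP libraries. Platelet, T cell, neutrophil and erythroid markers were also lower, as given above. The part of these cell types in the fall of Laptm5 was not tested.

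Cd68, the lysosomal glycoprotein used as a macrophage marker, had 35.8, 24.9 and 43.8 CPM in ITA-LNP libraries, against 15.8, 67.9, 5.58 and 10.004 CPM in control-LNP replicates 1 to 4. Control-LNP replicate 2 was the highest of all 7, and the log2 fold change was 1.04 ± 0.90, short of the threshold (adjusted p = 0.508). Without that library it was 1.71 (adjusted p = 0.0469), and with all libraries and median centring it turned to -0.09. Lamp2 encodes the other major glycoprotein of the lysosomal membrane. It had 173, 102 and 130 CPM in ITA-LNP libraries, against 69.7, 144, 46.4 and 39.7 CPM in control-LNP replicates 1 to 4. Control-LNP replicate 2 lay within the ITA-LNP range and the other 3 below it. The log2 fold change was 1.00 ± 0.55 (adjusted p = 0.274) with all libraries, 1.37 (adjusted p = 0.0157) without control-LNP replicate 2, and -0.13 with median centring.

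Scarb2, which encodes the carrier LIMP-2 that brings glucocerebrosidase to the lysosome, had the opposite arrangement. It was at 249.7, 183 and 175 CPM in ITA-LNP libraries, against 62.2, 1.79, 51.2 and 50.5 CPM in control-LNP replicates 1 to 4. The groups did not overlap, replicate 2 was far below the other 3 control-LNP libraries, and the log2 fold change was 2.94 ± 1.04, short of the threshold (adjusted p = 0.0945). Without that library the log2 fold change was 1.86 ± 0.26 (adjusted p = 0.00144). Npc1 and Mcoln1 did not pass with replicate 2 (adjusted p of 0.351 and 0.584) or without it (0.353 and 0.803). Npc1 encodes the membrane protein that moves cholesterol out of the lysosome, and Mcoln1 a calcium channel of its membrane. Npc1 had 40.6, 163 and 55.5 CPM with ITA-LNP, against 43.7, 1.5, 39.0 and 51.2 CPM in control-LNP replicates 1 to 4. Apart from ITA-LNP replicate 2 and control-LNP replicate 2, all of its values lay between 39.0 and 55.5 CPM. The last exon of Npc1 overlaps an exon of Rmc1 on the other strand by 319 bases, and Rmc1 has no level of its own here. Mcoln1 was at 3.43 to 31.1 CPM with ITA-LNP, against 0 to 15.95 CPM in control-LNP libraries, and the ranges overlapped.

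**Figure D3:**
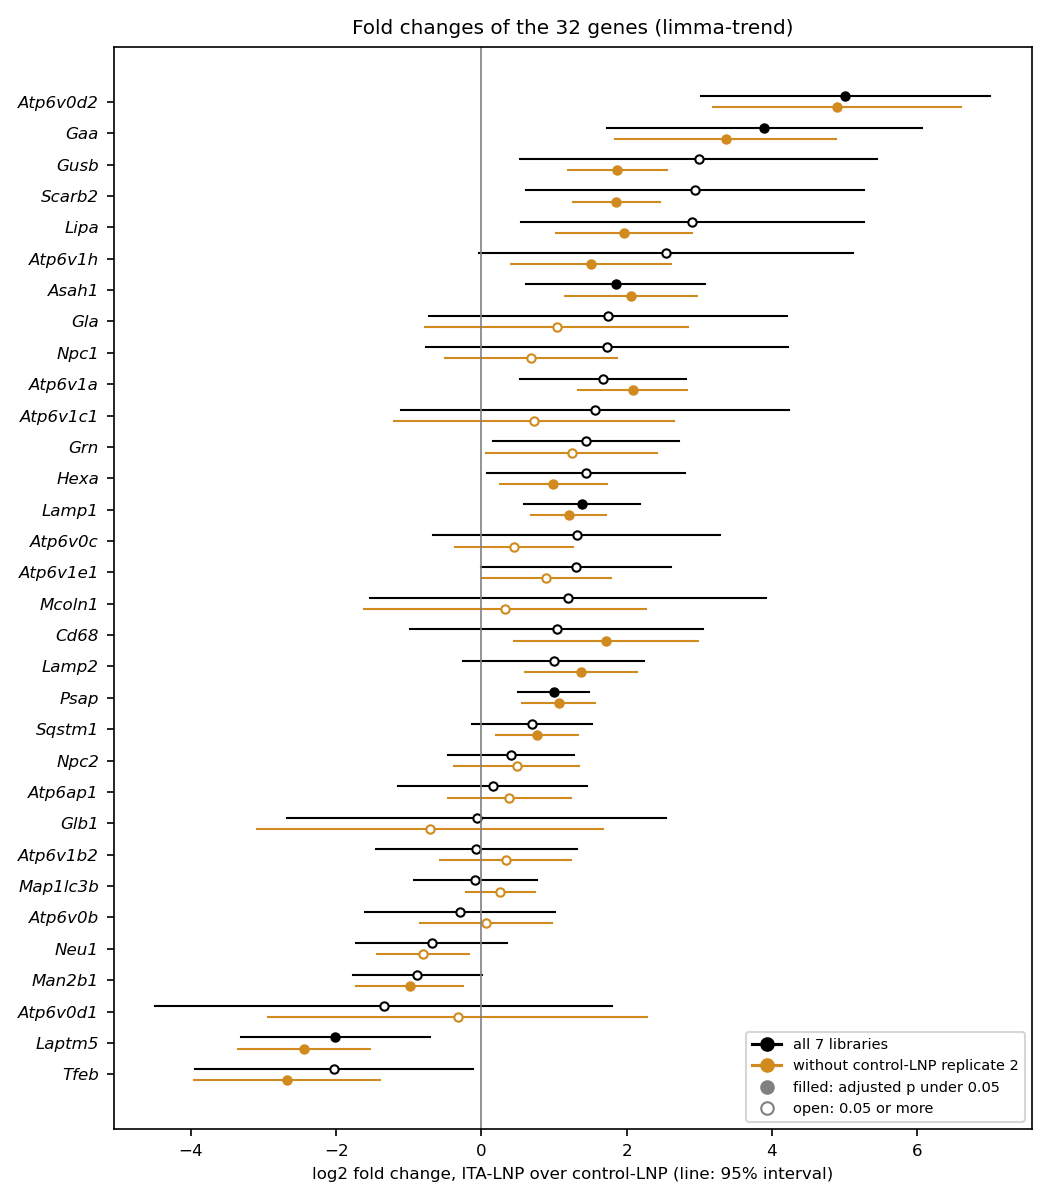
Log2 fold change of each gene, ITA-LNP over control-LNP, with its 95% interval, from all 7 libraries (black) and without control-LNP replicate 2 (orange), filled where the adjusted p is under 0.05. Filled points number 6 with all libraries and 17 without that replicate, and the intervals are narrower without it for most genes, Gusb, Scarb2 and Lipa among them.

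Of the 9 hydrolases, Gaa and Asah1 rose, and 7 did not pass. Gaa (chromosome 11, 119267887 to 119285454) encodes acid alpha-glucosidase, which degrades glycogen in the lysosome. It had 26.2, 68.2 and 46.0 CPM in ITA-LNP libraries, against 6.50, 0, 1.73 and 2.95 CPM in control-LNP replicates 1 to 4. The lowest ITA-LNP value exceeded the highest control-LNP value, and the log2 fold change was 3.89 ± 0.97 (adjusted p = 0.0223), or 3.36 ± 0.66 (adjusted p = 0.00628) without control-LNP replicate 2. The call was lost when any ITA-LNP library or 1 of control-LNP replicates 3 and 4 was left out, with adjusted p of at most 0.0889.

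Asah1 (chromosome 8, 41340197 to 41374773) encodes acid ceramidase, which splits ceramide into sphingosine and a fatty acid. Its level was 90.2, 159 and 180.3 CPM in ITA-LNP libraries, against 48.5, 58.8, 25.6 and 26.7 CPM in control-LNP replicates 1 to 4. The groups did not overlap, with a log2 fold change of 1.85 ± 0.55 (adjusted p = 0.0495), or 2.06 when control-LNP replicate 2 was left out (adjusted p = 0.00571) and 0.72 with median centring (adjusted p = 0.680). Leaving out any library other than that replicate ended the call (adjusted p up to 0.179).

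Lipa and Gusb had higher values in every ITA-LNP library and passed only where control-LNP replicate 2 was left out, with sample weights or under quantile normalization, Lipa also with a pseudocount of 4 CPM. Lipa, the lysosomal acid lipase that hydrolyses the cholesteryl esters of lipoproteins, had 46.9, 87.5 and 76.5 CPM in ITA-LNP libraries, against 21.9, 0.299, 14.8 and 14.4 CPM in control-LNP replicates 1 to 4. Its log2 fold change was 2.90 ± 1.05 (adjusted p = 0.102), and 1.96 ± 0.41 (adjusted p = 0.00804) without replicate 2. Gusb, or beta-glucuronidase, which acts on glycosaminoglycans, had 131, 130.3 and 166 CPM in ITA-LNP libraries, against 29.0, 0.748, 44.6 and 42.1 CPM in control-LNP replicates 1 to 4. Its log2 fold change was 2.99 ± 1.10 (adjusted p = 0.106), and 1.87 (adjusted p = 0.00243) without replicate 2. For both genes replicate 2 was at under 1 CPM, far below every other library.

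Hexa, the alpha subunit of beta-hexosaminidase A, which degrades the ganglioside GM2, was also higher in every ITA-LNP library. It had 97.1, 133 and 165 CPM with ITA-LNP, against 83.7, 17.9, 49.6 and 64.0 CPM in control-LNP replicates 1 to 4, with a log2 fold change of 1.44 ± 0.61 (adjusted p = 0.152, or 0.0486 when replicate 2 was left out). Man2b1 and Neu1, hydrolases of glycoprotein chains, had lower values in every ITA-LNP library. Man2b1, the lysosomal alpha-mannosidase, had 194, 119 and 99.6 CPM in ITA-LNP libraries, against 345, 195, 248 and 211 CPM in control-LNP replicates 1 to 4 (log2 fold change -0.88 ± 0.39, adjusted p = 0.171; -0.99, adjusted p = 0.0488 without replicate 2). Neu1, the lysosomal sialidase, had 53.6, 49.7 and 58.5 CPM in ITA-LNP libraries, against 100.3, 66.4, 78.7 and 109 CPM in control-LNP libraries (-0.68 ± 0.46, adjusted p = 0.379; -0.81, adjusted p = 0.0572 without replicate 2). Gla and Glb1, which remove terminal galactose from glycolipids and other glycans, overlapped between the groups. Gla was at 8.16 to 44.6 CPM with ITA-LNP, against 0.150 to 9.23 CPM in control-LNP libraries (1.74 ± 1.10, adjusted p = 0.340; 1.04, adjusted p = 0.353 without replicate 2). Glb1 was at 0.137 to 9.43 CPM with ITA-LNP, against 0.150 to 10.8 CPM in control-LNP libraries, on 210 reads in all (-0.07 ± 1.16, adjusted p = 0.980; -0.71, adjusted p = 0.640 without replicate 2).

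Psap rose and was the most abundant of the 32 genes. Psap (chromosome 10, 60277627 to 60302597) encodes prosaposin, the precursor of the saposins that present sphingolipids to the hydrolases. It had 1500.1, 2029 and 1947 CPM in ITA-LNP libraries, against 880.2, 1050.4, 1038 and 709 CPM in control-LNP replicates 1 to 4. Each ITA-LNP library was higher, with a log2 fold change of 0.99 ± 0.22 (adjusted p = 0.0114) that turned to -0.13 with median centring. It was 1.06 (adjusted p = 0.00750) when control-LNP replicate 2 was left out. Leaving out ITA-LNP replicate 2 or 3 ended the call, at adjusted p of at most 0.0619.

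The soluble cholesterol carrier Npc2 and the progranulin gene Grn did not pass. Npc2 had 284, 324 and 577 CPM in ITA-LNP libraries, against 425, 329, 216 and 210.2 CPM in control-LNP libraries. These overlapped, with a log2 fold change of 0.41 ± 0.39 (adjusted p = 0.548) and a 95% interval of -0.46 to 1.28, or 0.49 (adjusted p = 0.359) when replicate 2 was left out. Grn, whose product is cut into granulins in the lysosome, had 164, 170.1 and 263 CPM in ITA-LNP libraries, against 188, 46.5, 46.4 and 61.7 CPM in control-LNP replicates 1 to 4. Control-LNP replicate 1 was within the ITA-LNP range and the other 3 were below it. The log2 fold change was 1.44 ± 0.57 (adjusted p = 0.129), and it passed only without replicate 1 (1.91, adjusted p = 0.0323). Without replicate 2 it was 1.24 (adjusted p = 0.103).

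Of the 10 V-ATPase genes, Atp6v0d2 rose and 9 did not pass. Atp6v0d2 (chromosome 4, 19876841 to 19922605) encodes the d2 form of the V0 subunit d, which is known from osteoclasts and macrophages. It had 34.98, 33.5 and 126 CPM in ITA-LNP libraries, against 1.18, 0.299, 0.385 and 0.984 CPM in control-LNP replicates 1 to 4. The ITA-LNP values rest on 223, 227 and 915 reads, and the control-LNP values on 6, 2, 2 and 6 reads. The groups were far apart, with a log2 fold change of 5.01 ± 0.89 (adjusted p = 0.00412), and means of 64.7 ± 52.8 CPM with ITA-LNP and 0.712 ± 0.437 CPM with control-LNP (SD, n = 3 and 4). Of the 6 called genes it alone kept its call in all 19 alternatives (log2 fold change 3.61 to 6.28, adjusted p up to 0.0385), which include each library left out. Without control-LNP replicate 2 it was 4.89 (adjusted p = 0.00199).

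Other genes of osteoclasts did not all move with Atp6v0d2. Of 4 osteoclast markers tested, the protease gene Ctsk rose (5.91, adjusted p = 0.00144), Acp5 and Mmp9 fell, and Ocstamp did not pass, although it fell without control-LNP replicate 2 (-2.21, adjusted p = 0.0120). Ctsk passed the filter on low values only through the ITA-LNP libraries and Ocstamp only through the control-LNP libraries. The whole list of 6 summed to 94.0 to 141 CPM in ITA-LNP libraries and 127 to 509 CPM in control-LNP libraries, and Calcr was at 0 reads in all libraries. Dcstamp was too low to test. The 6 osteoclast markers were named after their values were seen, and the part of other cell types in their levels was not tested. The 10 macrophage markers summed above did not move together. Mertk (log2 fold change 5.07), C1qc (4.93), C1qb (4.64), Mrc1 (3.83) and C1qa (3.47) rose and Csf1r fell (-2.31), at adjusted p under 0.05. The other 4 did not pass, and 1 of the 10 had a control-LNP mean below the filter on low values. The part of both cell types in the rise of Atp6v0d2 was not tested.

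**Figure D4:**
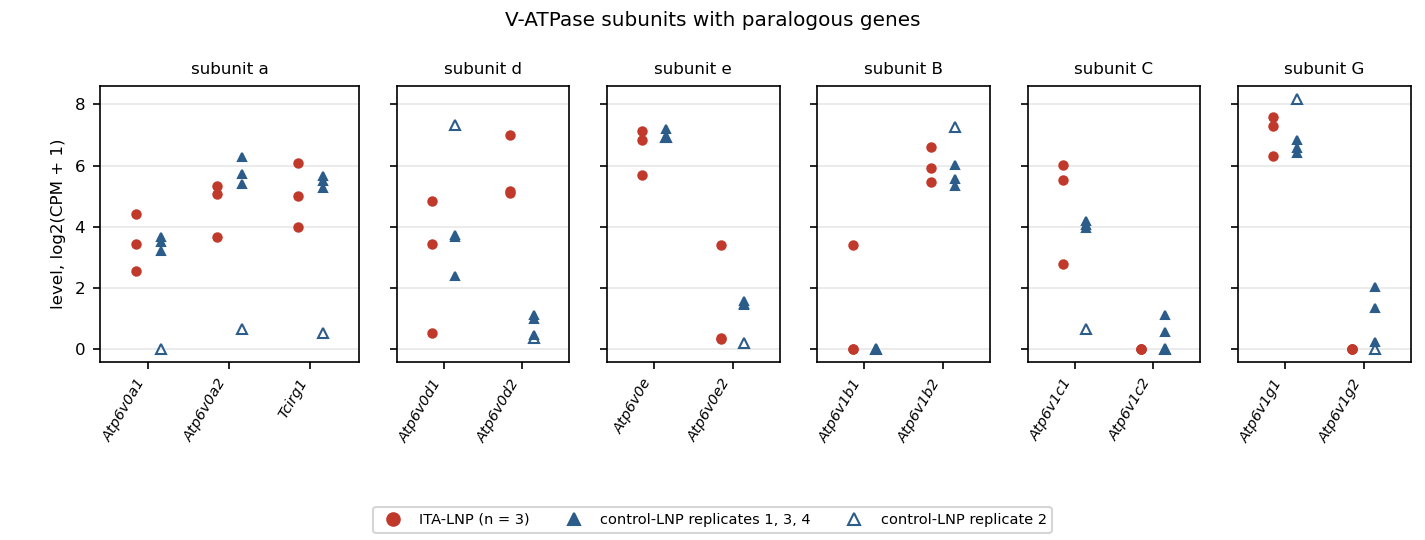
Level, as log2(CPM + 1), of V-ATPase subunits that have more than 1 gene, with ITA-LNP libraries as circles and control-LNP libraries as triangles (replicate 2 open). Subunit d is encoded mainly by Atp6v0d2 in the ITA-LNP libraries and by Atp6v0d1 in the control-LNP libraries, and for the subunits e, B, C and G the more abundant gene is the same in both groups.

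The widely expressed Atp6v0d1 had 9.88, 0.442 and 27.6 CPM in ITA-LNP libraries, against 12.2, 160, 4.23 and 11.81 CPM in control-LNP replicates 1 to 4. The values overlapped and control-LNP replicate 2 was the highest of all (log2 fold change -1.34 ± 1.40, adjusted p = 0.594; -0.33 without it). Within each ITA-LNP library Atp6v0d2 exceeded Atp6v0d1, by 1.73, 4.58 and 2.15 on the log2(CPM + 1) scale. In each control-LNP library it was lower, with differences of -2.60, -6.95, -1.92 and -2.69. Apart from the pseudocount, this within-library difference does not depend on how a library was scaled. It was 6.36 higher with ITA-LNP (exact two-sided permutation test, p = 0.0286, the smallest that 35 splits allow). Adjusted over 6 gene pairs, that p was 0.0857 and did not pass. Control-LNP replicate 2, at -6.95, lay furthest from the ITA-LNP libraries and widens this difference. The pair holds Atp6v0d2, already called above, which passed the filter on low values only through the ITA-LNP libraries. The genes were also chosen with earlier results of these data known, so the pair test is no separate support.

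Atp6v1a, the catalytic subunit A of the V1 sector, was the most abundant V-ATPase gene in the ITA-LNP libraries. It had 486, 293 and 549 CPM in ITA-LNP libraries, against 128, 310.2, 108 and 72.5 CPM in control-LNP replicates 1 to 4. Control-LNP replicate 2 was above the lowest ITA-LNP library, and the log2 fold change of 1.68 ± 0.51 missed the threshold (adjusted p = 0.0544), while it passed without that replicate (2.08 ± 0.32, adjusted p = 0.00230). Atp6v1h, a V1 subunit that regulates the pump, was higher in every ITA-LNP library. It had 30.6, 75.9 and 49.9 CPM with ITA-LNP, against 16.2, 0, 12.5 and 22.3 CPM in control-LNP replicates 1 to 4 (2.54 ± 1.15, adjusted p = 0.176; 1.51, adjusted p = 0.0447 without replicate 2). The other V1 members are Atp6v1b2, the nucleotide-binding subunit B, and the stalk subunits Atp6v1c1 and Atp6v1e1. Atp6v1b2 was at 42.7 to 95.5 CPM with ITA-LNP, against 39.7 to 153 CPM in control-LNP libraries. Atp6v1c1 was at 5.96 to 64.5 CPM with ITA-LNP, against 0.598 to 17.4 CPM in control-LNP libraries, and Atp6v1e1 at 123 to 251 CPM with ITA-LNP, against 31.99 to 158 CPM in control-LNP libraries. All 3 overlapped between the groups, with log2 fold changes of -0.07, 1.57 and 1.31 (adjusted p of 0.962, 0.440 and 0.171). Without replicate 2 they were 0.34, 0.72 and 0.90 (adjusted p of 0.554, 0.553 and 0.117).

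In the V0 sector, the proton-carrying ring subunits Atp6v0b and Atp6v0c went apart in control-LNP replicate 2. Atp6v0b had 60.7, 48.6 and 130.1 CPM in ITA-LNP libraries, against 69.1, 192, 72.5 and 66.9 CPM in control-LNP replicates 1 to 4. Atp6v0c had 113, 97.7 and 229 CPM in ITA-LNP libraries, against 107, 8.22, 89.2 and 102 CPM in control-LNP replicates 1 to 4. Both overlapped between the groups, and the log2 fold changes were -0.30 ± 0.58 (adjusted p = 0.797) and 1.31 ± 0.88 (adjusted p = 0.374), or 0.07 and 0.45 without replicate 2 (adjusted p of 0.918 and 0.368). Atp6ap1, an accessory protein of pump assembly, was at 35.3 to 59.2 CPM with ITA-LNP, against 28.6 to 63.5 CPM in control-LNP libraries. Its log2 fold change was 0.16, with a 95% interval of -1.14 to 1.46, or 0.38 without replicate 2 (adjusted p = 0.463). It turned to -0.97 with median centring and to -0.04 with quantile normalization.

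Of the 3 genes of autophagy and its control, none passed with all libraries. Sqstm1 encodes p62, which ties ubiquitinated cargo to the forming autophagosome. It had 164, 210.1 and 229 CPM in ITA-LNP libraries, against 139, 142, 106 and 108 CPM in control-LNP replicates 1 to 4. Each ITA-LNP library exceeded them, with a log2 fold change of 0.70 ± 0.37 (adjusted p = 0.244). The change was 0.77 when control-LNP replicate 2 was left out (adjusted p = 0.0463) and -0.43 with median centring. The last exon of Sqstm1 overlaps an exon of Mrnip on the other strand by 580 bases, and Mrnip has no level of its own here. Map1lc3b, the LC3B protein of the autophagosome membrane, had 488, 641 and 644 CPM in ITA-LNP libraries, against 551, 1269.7, 496 and 426 CPM in control-LNP replicates 1 to 4. Replicate 2 held the highest value, and the log2 fold change was -0.08 ± 0.38 (adjusted p = 0.924), or 0.26 without replicate 2.

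Tfeb (chromosome 17, 47737030 to 47792419), the transcription factor named above, was rare in all libraries. It had 0, 0 and 2 reads in ITA-LNP libraries, against 38, 1, 22 and 40 reads in control-LNP replicates 1 to 4. As sums this is 2 reads with ITA-LNP against 101 reads with control-LNP, a ratio of 0.0223 with an exact 95% Clopper-Pearson interval of 0.00267 to 0.0828 that covers counting error only. Control-LNP replicate 2 was as low as the ITA-LNP libraries. With all libraries the log2 fold change was -2.03 ± 0.85, short of the threshold (adjusted p = 0.148). Leaving that replicate out gave -2.68 ± 0.55, which passed (adjusted p = 0.00796). The counts of 0 in ITA-LNP replicates 1 and 2 allow levels of up to 0.471 and 0.442 CPM, from counting error alone.

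Of the other genes of the same pathways, 120 of 129 listed were tested, and 7 rose and 1 fell. That is 5.83% and 0.833%, against 10.3% and 5.15% of all genes tested, and their median log2 fold change was 0.40. None of 10 tested further V-ATPase subunits passed. Of 28 further hydrolases and activators, 3 rose and 1 fell. Tpp1, a tripeptidyl peptidase of the lysosome, had 454, 522 and 356 CPM in ITA-LNP libraries, against 120, 199, 107 and 139.7 CPM in control-LNP libraries (1.67 ± 0.35, adjusted p = 0.0104; 0.0510 without ITA-LNP replicate 2). Hyal2, a hyaluronidase, had 37.3, 10.9 and 7.42 CPM in ITA-LNP libraries, against 0.150 to 1.18 CPM in control-LNP libraries (3.52 ± 0.85, adjusted p = 0.0195; at most 0.0897 when control-LNP replicate 3 or 4 was left out). Hyal2 passed the filter on low values only through the ITA-LNP libraries, where it is high. Plbd2, a lysosomal protein related to phospholipase B, also rose (3.57 ± 1.06, adjusted p = 0.04995), with adjusted p of at most 0.167 when an ITA-LNP library or 1 of control-LNP replicates 3 and 4 was left out. The gene that fell was Acp5, the tartrate-resistant acid phosphatase, at 19.3, 33.6 and 0.549 CPM in ITA-LNP libraries, against 96.7, 239, 117 and 118 CPM in control-LNP libraries (-3.71 ± 1.01, adjusted p = 0.0345). Its call ended when ITA-LNP replicate 1 or 1 of control-LNP replicates 1, 3 and 4 was left out, at adjusted p of at most 0.0764.

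Of 18 further lysosomal membrane proteins, Cd63 and Laptm4b rose and none fell. Cd63, a tetraspanin of late endosomes and platelet granules, had 287, 368 and 268 CPM in ITA-LNP libraries, against 3.35, 235, 5.96 and 3.44 CPM in control-LNP replicates 1 to 4. Replicate 2 again lay apart from the other 3 control-LNP libraries. The log2 fold change was 4.52 ± 1.29 (adjusted p = 0.0422), 5.90 without it, and the call was lost without any of the other 6 libraries (adjusted p up to 0.143). Laptm4b, a relative of Laptm5, rose where Laptm5 fell: it had 28.7, 46.0 and 23.4 CPM in ITA-LNP libraries, against 0 to 4.10 CPM in control-LNP libraries (3.75 ± 0.94, adjusted p = 0.0234; up to 0.0815 without an ITA-LNP library or control-LNP replicate 3). None of 9 genes of the mannose 6-phosphate sorting route, which delivers hydrolases to the lysosome, passed.

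Of 39 further autophagy genes, 1 rose and none fell. This was Wipi1, a lipid-binding protein of the early autophagosome, at 138, 106 and 141 CPM in ITA-LNP libraries, against 20.9, 1.5, 14.6 and 9.68 CPM in control-LNP libraries. Its log2 fold change was 3.71 ± 0.84 (adjusted p = 0.0138; up to 0.0667 without an ITA-LNP library). Of 16 tested genes of the MiT factors and of nutrient sensing at the lysosome, 1 rose. This was Mitf, a relative of Tfeb, at 12.4, 48.2 and 18.8 CPM in ITA-LNP libraries, against 2.76, 0.449, 2.69 and 0.492 CPM in control-LNP libraries (3.33 ± 0.92, adjusted p = 0.0360). Mitf lay above and Tfeb lay below the control-LNP values of replicates 1, 3 and 4 in all ITA-LNP libraries. The call of Mitf was lost without any library other than control-LNP replicate 2 (adjusted p up to 0.126). Without that replicate 17 of the 121 genes then tested rose and 6 fell, which is 14.0% and 4.96%, against 15.4% and 16.0% of all genes. The median log2 fold change was -0.07, against -0.31 over all genes. The 8 genes called with all libraries were also called without it, in the same direction (adjusted p up to 0.0394).

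Differences between genes of 1 library were also compared for 5 more pairs. Laptm5 minus Lamp1 was -2.55 ± 0.69 in ITA-LNP libraries and 0.85 ± 0.84 in control-LNP libraries on the log2(CPM + 1) scale (SD, n = 3 and 4). The groups did not overlap and differed by -3.40 (exact two-sided permutation test, p = 0.0286, 0.0857 adjusted over 6 pairs). Laptm5 and Lamp1 were already called above in opposite directions, so this difference is no separate support. Sqstm1 minus Map1lc3b was -1.55 ± 0.06 with ITA-LNP and -2.33 ± 0.56 with control-LNP (exact p = 0.0857, adjusted 0.171). The groups did not overlap, and the ITA-LNP values were the higher and the more alike. Npc2 minus Npc1, Lamp1 minus Lamp2 and Cd68 minus Lamp1 overlapped between the groups, with exact p of 0.514, 0.743 and 0.886.

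**Figure D5:**
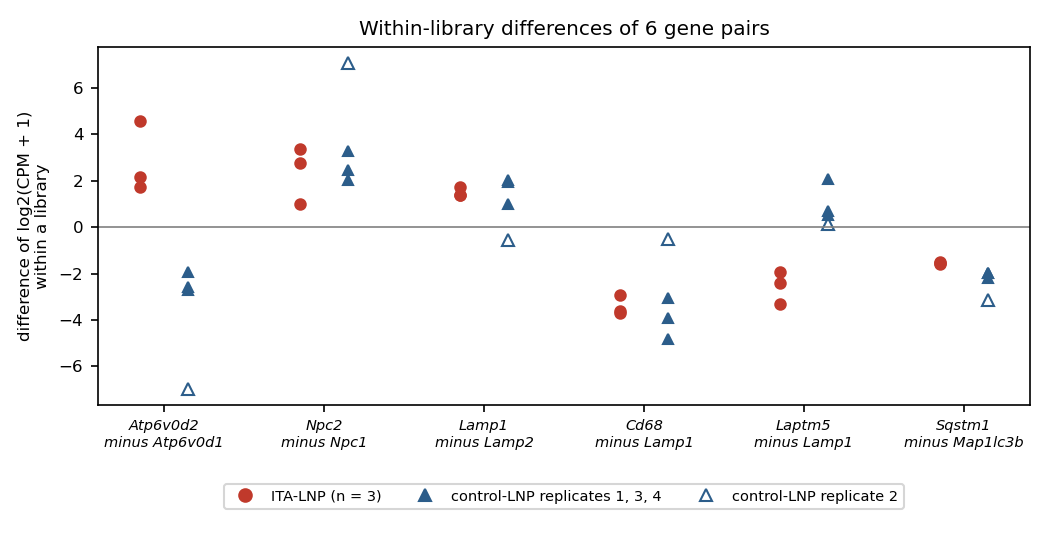
Difference of log2(CPM + 1) between the 2 genes of each of 6 pairs, 1 point per library. The groups do not overlap for Atp6v0d2 minus Atp6v0d1, above 0 in all ITA-LNP and below 0 in all control-LNP libraries, for Laptm5 minus Lamp1, below 0 in all ITA-LNP and above 0 in all control-LNP libraries, and for Sqstm1 minus Map1lc3b, below 0 in all libraries.

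Among the control-LNP libraries, replicate 2 was below the other 3 for 19 of the 32 genes, above them for 11 and within their range for 2. Over all genes tested it was below for 66.5% and above for 20.4%. The genes highest in it included Map1lc3b, Atp6v0d1, Atp6v0b, Atp6v1b2, Lamp2 and Cd68, and those lowest in it Scarb2, Lipa, Gusb, Gaa and Atp6v0c. The median coefficient of variation over the 32 genes was 33.5% in the ITA-LNP libraries and 64.6% in the control-LNP libraries, or 26.8% without replicate 2.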

How the data were processed

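The authors deposited 1 table of 32544 genes and 7 libraries on a log10 scale, read from its values as log10 of CPM + 1. The libraries were made with a QuantSeq 3′ kit, per the labels' protocols, and mm10 is the genome build that the submitters' processing notes name. For aligner, counter, annotation and strand, the methods were not given in the sources used here. Raising 10 to each value and subtracting 1 gave CPM that sum to 1000000 per library. Of the values, 100% were whole reads within a tolerance of 0.01, which gave the depths. A count of 0 allows up to 3 reads, counting error only.

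The test used log2(CPM + 1). This pseudocount of 1 CPM understates the change of low genes. The 12636 genes with a mean of at least 1 were fitted with limma-trend (limma 3.58.1, R 4.3.3), ITA-LNP against control-LNP, no covariate, with Benjamini-Hochberg adjustment and a threshold of 0.05. The fit was tested on simulated data. The simulated libraries shared a common profile apart from the changed genes, and none stood apart as control-LNP replicate 2 does. That test therefore does not cover such differences between libraries. Errors after log2 fold changes are standard errors. Within-library differences of gene pairs used exact permutation tests. Gene coordinates come from GENCODE M21, where all 32 members were matched, and promoters from RefSeq (GRCm38.p6).

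The main fit did not pair libraries by replicate number. The members and all lists were chosen with earlier results of these data known. All 32 genes are accounted for, and of each related list up to 3 called genes per direction are named by p. The 6 osteoclast markers, and the genes that overlap a last exon, were named after their values were seen. Alternatives were 2 filters, median centring, quantile normalization, other variance priors, sample weights, a replicate block, other pseudocounts, limma-voom on the recovered reads, a threshold of 0.1, and each library left out. Python 3.11.15, pandas 2.3.3 and matplotlib 3.10.9 handled tables and plots.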

Additional observations from a re-analysis of the deposited data

Results flagged for a closer look

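In the 4 control-LNP libraries, 7 of the 32 genes had 1 library whose gap to the others exceeded Dixon's 95% critical value for 4 samples on the log2(CPM + 1) scale, and in each it was control-LNP replicate 2. Chance gives about 1 in 20 groups. The share of all genes tested that this rule marks is not given here, so the 7 are not shown to be particular to the 32 genes. Over all genes tested, replicate 2 lay below the other 3 for 66.5% and above them for 20.4%. Of the 7 marked genes, replicate 2 was the lowest control-LNP library for 6. Scarb2 stood at 1.79 CPM in replicate 2, against 50.5 to 62.2 CPM in the other 3. Npc1 stood at 1.495 CPM, against 39.0 to 51.2 CPM, and Atp6v0c at 8.22 CPM, against 89.2 to 107 CPM. Lipa was at 0.299 CPM, against 14.4 to 21.9 CPM. Gusb was at 0.748 CPM, against 29.0 to 44.6 CPM, and Atp6v1c1 at 0.598 CPM, against 14.6 to 17.4 CPM. Atp6v0b was the exception, at 192 CPM in replicate 2 and 66.9 to 72.5 CPM in the other 3. No other control-LNP library was marked for any of the 32 genes.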

How the results depend on the processing

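The counts depended on the setting. Of the 32 genes, 5 rose and 1 fell. Rises and falls numbered 2 and 2 with median centring, 2 and 0 without a variance trend, 11 and 2 with sample weights, and 10 and 4 without control-LNP replicate 2 and with median centring. Quantile normalization gave 9 rises, a pseudocount of 0.25 CPM 3, and falls were 0 with no filter and with voom. With each library left out in turn, rises ranged from 1 to 14 and falls from 0 to 3, both highest without control-LNP replicate 2. Of all genes tested, higher and lower calls took 10.3% and 5.15% with all libraries, 5.86% and 9.88% with median centring, 10.2% and 3.78% without a variance trend, 16.6% and 17.8% with sample weights, 12.8% and 11.1% with quantile normalization, 6.62% and 2.94% with no filter, 5.84% and 2.55% with the replicate block, and 13.8% and 19.8% without control-LNP replicate 2 and with median centring. They took 9.40% and 4.93% with a pseudocount of 0.25 CPM, 11.5% and 5.25% with 4 CPM, 12.8% and 7.53% at a threshold of 0.1, 10.1% and 3.94% with voom, and 7.85% to 15.4% and 3.21% to 16.0% with each library left out. Of the 120 related genes tested, 7 rose and 1 fell. These counts were 4 and 0 with no filter, 2 and 2 with median centring, 11 and 6 with quantile normalization, 15 and 11 with sample weights, 4 and 0 with a pseudocount of 0.25 CPM, 13 and 14 without control-LNP replicate 2 and with median centring, and 11 and 3 at a threshold of 0.1. A pseudocount of 4 CPM gave 3 falls and voom 0. With each library left out, rises ranged from 1 to 17 and falls from 0 to 6.

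With the replicate block, 1 of the 32 genes rose and 0 fell, and of the related genes 0 rose and 0 fell. Deviations from the group means of same-numbered libraries had correlations of 0.00528, -0.0105 and -0.0173. With so few libraries these values cannot show whether a number stands for a shared batch, which was not tested.

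Log2 fold changes turned in sign with median centring for Lamp2 (-0.13), Cd68 (-0.089), Psap (-0.13), Npc2 (-0.72), Atp6ap1 (-0.97) and Sqstm1 (-0.43), and with quantile normalization for Atp6ap1 (-0.039). With sample weights Atp6v0b was 0.069, Atp6v1b2 0.52 and Map1lc3b 0.31, all turned. Without control-LNP replicate 2 and with median centring Atp6v1b2 was 0.10 and Map1lc3b 0.026. With each library left out, the log2 fold change ran from -0.72 to 0.87 for Glb1, -0.71 to 0.066 for Atp6v0b, -0.057 to 0.38 for Atp6ap1, -0.37 to 0.34 for Atp6v1b2 and -0.26 to 0.26 for Map1lc3b. Of these genes Psap alone was called with all libraries. Likewise Lamp1 minus Lamp2 ran from -0.17 to 0.70 and Cd68 minus Lamp1 from -0.92 to 0.51, both turned without control-LNP replicate 2. Median centring with all libraries shifted every log2 fold change by the same -1.13, so each rise smaller than that turned. For the other settings the cause was not tested. All genes tested gave 66.7% of calls higher, against 37.2% with median centring, 53.5% with quantile normalization, 48.4% with sample weights and 49.1% without control-LNP replicate 2. Voom called 1768 genes, the replicate block 1060 and limma-trend 1957. The exact tests of pairs reach no lower than 0.0286, so none of the 6 pairs could pass unless at least 4 reached it.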

Other observations

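Some V-ATPase genes of other tissues were near absent. Atp6v0a4 and Atp6v1e2 were at 0 reads in all 7 libraries, and Atp6v1b1, the kidney form of subunit B, was at 9.61 CPM in ITA-LNP replicate 3 and at 0 reads in the other 6. Zcchc14, whose exon overlaps the last exon of Map1lc3b on the other strand, had 110, 70.3 and 109 CPM in ITA-LNP libraries, against 6.89, 0.449, 1.92 and 2.79 CPM in control-LNP replicates 1 to 4. Map1lc3b itself overlapped between the groups in the same libraries.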
